A study of Mus musculus with 22 samples.

Results

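The genes described here were 47 genes of the extracellular matrix and of the fibroblasts that make most of it, read from 22 microarrays of mouse intestine. They are a list of gene names matched to the name of each probe, and 45 of the 47 were found among the 27962 gene names of the array. They were read in classes by role: 12 collagens, 10 basement membrane proteins (8 of them found), 12 glycoproteins and proteoglycans, 8 matrix enzymes and inhibitors, and 5 genes of mesenchymal cells and their growth factors. Of the missing members, the laminin chain Lamb1 was present under its older symbol Lamb1-1 and perlecan (Hspg2) only as 2 probes described as perlecan without that symbol, so these are given apart and enter no count.

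The extracellular matrix of the gut wall has 2 main forms. Fibrillar collagens, made as long precursors that are hydroxylated, folded with chaperones and cross-linked, fill the lamina propria and submucosa, while collagen IV, laminins and nidogens form the sheet on which the epithelium rests. Fibroblasts, smooth muscle cells and pericytes secrete most of these proteins, and metalloproteinases with their tissue inhibitors remodel them.

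The study compared SIRT1 iKO mice, the mutants, with flox control mice, all male C57BL/6 animals kept on chow and given no treatment. The labels do not spell out the abbreviation iKO, the promoter or cell type of any recombinase, or the part of Sirt1 that was deleted. The groups were aged colon iKO (n = 4) and aged colon flox (n = 3), aged ileum iKO (n = 4) and aged ileum flox (n = 3), and young ileum iKO (n = 4) and young ileum flox (n = 4), where aged mice were 24 months old and young mice 6 to 8 weeks old. Each array measured total RNA of whole tissue, so fewer cells of a type and less RNA per cell cannot be told apart. No label says that the numbered replicates were separate animals, and the p-values measure the spread between these samples, which may be technical.

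Levels are on the log2 scale, with each array centred on its own 75th percentile, so a level of 0 means a signal at that percentile, and differences are in log2 units. The probe with the highest mean signal stood for a gene, and a difference was called at a Benjamini-Hochberg adjusted p under 0.05 over all genes tested with limma. Between 49.8% and 61.5% of the spots of an ileum array were well above background, the lowest share being on aged ileum iKO array 3. On colon arrays the share was higher throughout, at 70.4% to 79.7%. Ileum arrays lay on 4 slides and colon arrays on 4 other slides, so tissue and array run cannot be told apart. In the young ileum and in the colon, flox and iKO arrays each kept to 1 position on the slide, and aged and young ileum arrays kept to different positions, so those contrasts and position cannot be told apart. Sirt1, the targeted gene, had levels of 0.28 to 0.39 in aged ileum iKO and 0.59 to 1.09 in aged ileum flox, 0.34 to 0.65 in aged colon iKO and 0.76 to 0.79 in aged colon flox, and 0.64 to 0.75 in young ileum iKO and 0.60 to 1.19 in young ileum flox. The groups did not overlap in either aged tissue, but the Sirt1 difference did not pass the test in aged ileum (-0.50 ± 0.13, SE, adjusted p = 0.177), aged colon (-0.28 ± 0.11, adjusted p = 0.623) or young ileum (-0.21 ± 0.12, adjusted p = 0.999).

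Of the 45 members, 42 were well above background on all 22 arrays. The exceptions were Col12a1, a collagen that sits on the surface of fibrils, Lox, the lysyl oxidase that cross-links collagen and elastin, and Eln, elastin itself. Col12a1 was well above background on none of the 15 ileum arrays and was tested nowhere, and Lox was tested only where colon arrays took part, which left 43 members tested in the ileum and 44 in the colon and in the aged arrays of both tissues. Among 10 fibroblast markers that are not members, Dpt, Thy1, Cd34, Pcolce and Fap were well above background on all 22 arrays and Pi16 and Twist1 on 21. The markers of subepithelial and other mesenchymal precursors were dimmer: Gli1 passed on 14 arrays, Foxf1a on 7 and Foxl1 on 4. All 11 smooth muscle markers were also well above background throughout, so RNA of muscle as well as of fibroblasts was measured.

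In the aged ileum nearly all matrix genes were lower in iKO than in flox mice, but only 1 passed the test. The difference was below 0 for 41 of the 43 members tested, against 46.6% of all 15588 genes, and its median was -0.50 over members and 0.02 over all genes. Col6a2, a chain of the beaded-filament collagen VI, fell 1.75-fold, and it was the only member called (percentage of all genes called lower, 0.0513%). Col6a1, Col15a1 and Col18a1 came next by p without passing. Of the 43 members, 17 had every iKO array below every flox array (5.78% of all genes did).

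Col6a2 had levels of -1.70, -1.64, -1.24 and -1.78 on aged ileum iKO arrays 1 to 4, against -0.59, -0.83 and -0.92 on aged ileum flox arrays 1, 3 and 4. No iKO array reached the lowest flox array, and iKO array 3 came nearest. The difference was -0.81 ± 0.12 (adjusted p = 0.0112). Its partner chain Col6a1 had levels of -0.19, -0.47, 0.26 and -0.25 in iKO and 0.75, 0.54 and 0.46 in flox, again without overlap (-0.75 ± 0.15, adjusted p = 0.0754). The third chain measured, Col6a3, differed by -0.40 ± 0.22 (adjusted p = 0.497). A second, dimmer Col6a2 probe gave -0.36, and the mean over both probes did not pass (-0.59, adjusted p = 0.15).

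The genes of Col6a1 and Col6a2 are neighbours on chromosome 10 of the mouse build GRCm38.p6, at chr10:76708792-76726044 and chr10:76595756-76623630, both on the minus strand with 85161 bases between them. The 250 bases upstream of their start sites (from RefSeq, the outermost start listed) are shown because these 2 chains had the smallest p between genotypes in aged ileum. The same stretch is shown for Col3a1 (chromosome 1, plus strand) and Sparc (chromosome 11, minus strand), the members with the largest falls with age in iKO ileum. Capitals mark TATAAA, the TATA box of core promoters; CCAAT, the motif bound by the factor NF-Y; GGGCGG, the GC box bound by Sp1; and CAGAC, the short Smad-binding element, each searched on both strands.
Col6a1, chr10:76726045-76726294: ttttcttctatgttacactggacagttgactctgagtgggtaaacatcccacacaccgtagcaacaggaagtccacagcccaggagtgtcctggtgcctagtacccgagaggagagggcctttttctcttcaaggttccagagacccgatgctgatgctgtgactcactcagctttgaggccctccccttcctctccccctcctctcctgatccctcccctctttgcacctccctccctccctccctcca
Col6a2, chr10:76623631-76623880: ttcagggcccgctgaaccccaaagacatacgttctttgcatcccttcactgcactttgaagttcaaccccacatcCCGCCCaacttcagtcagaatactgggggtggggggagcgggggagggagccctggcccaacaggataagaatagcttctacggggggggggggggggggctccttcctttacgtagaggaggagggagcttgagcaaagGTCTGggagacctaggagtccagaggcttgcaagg
Col3a1, chr1:45311288-45311537: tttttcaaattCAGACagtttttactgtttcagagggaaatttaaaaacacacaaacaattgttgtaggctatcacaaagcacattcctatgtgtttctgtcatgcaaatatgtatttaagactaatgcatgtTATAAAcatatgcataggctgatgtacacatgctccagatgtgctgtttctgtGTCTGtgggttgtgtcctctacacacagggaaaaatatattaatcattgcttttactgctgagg
Sparc, chr11:55420081-55420330: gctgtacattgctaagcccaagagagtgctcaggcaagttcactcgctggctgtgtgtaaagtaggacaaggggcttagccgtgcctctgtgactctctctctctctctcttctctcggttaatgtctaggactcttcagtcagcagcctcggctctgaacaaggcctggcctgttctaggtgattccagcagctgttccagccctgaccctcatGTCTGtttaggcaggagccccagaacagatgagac
Col3a1 was the only one of the 4 with a TATAAA, which lay near the middle of the window and not close to the start. Of 32851 listed mouse starts, 12.4% hold TATAAA in this window. Col3a1 was also AT-rich, with 35.2% G and C, and held 2 CAGAC. Col6a1 held none of the 4 motifs, Col6a2 1 GC box and 1 CAGAC, and Sparc 1 CAGAC. None of the 4 held CCAAT, against 33.85% of all starts, while 32.7% of all starts hold the GC box and 42.2% hold CAGAC. Among the 27 members with an entry, each read at its first listed start, 3 held TATAAA, 8 CCAAT, 15 the GC box and 12 CAGAC. These matches describe the letters in the window only.

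The other collagens differed in the same direction in aged ileum. All 11 tested were lower in iKO, with a median of -0.53. Col15a1, a collagen of the zone beneath basement membranes, had levels of -3.18, -2.81, -3.00 and -3.00 on iKO arrays and -1.87, -2.40 and -2.34 on flox arrays, which did not overlap (-0.79 ± 0.16, adjusted p = 0.0881). Col1a1, the main chain of collagen I, had levels of 0.71, 0.97, 1.11 and 0.90 in iKO and 1.91, 1.46 and 1.45 in flox, also without overlap (-0.68 ± 0.24, adjusted p = 0.299). Col18a1, the parent of endostatin, differed by -0.50 ± 0.13 (adjusted p = 0.18). Col3a1, the collagen of reticular fibres, had levels of 2.19, 2.74, 2.87 and 2.83 in iKO and 3.51, 2.93 and 3.09 in flox, narrowly without overlap (-0.52 ± 0.28, adjusted p = 0.475).

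All 8 basement membrane genes tested were lower in aged iKO ileum, with a median of -0.51 and none called. Col4a2, one of the 2 ubiquitous collagen IV chains, had levels of -0.24, -0.27, -0.04 and -0.51 in iKO and 0.53, 0.19 and 0.19 in flox, with no overlap (-0.57 ± 0.16, adjusted p = 0.192). Nid2, a nidogen that links laminin to collagen IV, had levels of -2.02, -2.00, -2.04 and -2.17 in iKO and -1.51, -1.26 and -1.51 in flox (-0.63 ± 0.32, adjusted p = 0.456). The groups did not overlap, while the young arrays, which share the estimate of spread, ranged from -2.85 to -1.75 in iKO and from -2.62 to -1.24 in flox. The laminin chains Lamc1 (-0.47 ± 0.17), Lamb2 (-0.50 ± 0.20), Lama2 (-0.53 ± 0.28) and Lama4 (-0.45 ± 0.23) lay close together. Lamb1-1 differed by -0.31 ± 0.21 and the brighter perlecan probe by -0.12 ± 0.23, neither passing.

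Among the glycoproteins and proteoglycans all 12 were lower in aged iKO ileum, with a median of -0.46 and none called. Fibronectin, Fn1, had levels of -1.07, -0.98, -0.83 and -1.27 in iKO and -0.36, -0.41 and -0.81 in flox, so that the highest iKO array lay just under the lowest flox array (-0.51 ± 0.19, adjusted p = 0.325). Fbn1, fibrillin of the elastic microfibril, also had no overlap (-0.53 ± 0.21). Sparc, a collagen-binding protein of matrix assembly, did overlap (-0.57 ± 0.22). Thbs1, thrombospondin 1, stood apart from the class with -0.02 ± 0.26.

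Of the 7 matrix enzymes and inhibitors tested, 6 were lower in aged iKO ileum, with a median of -0.52, and 4 of the 5 mesenchymal genes were lower, with a median of -0.03. Mmp2, a gelatinase, had levels of -0.90, -1.03, -0.42 and -0.92 in aged ileum iKO and 0.02, -0.26 and -0.21 in aged ileum flox, with no overlap (-0.67 ± 0.22, adjusted p = 0.259). Timp2, an inhibitor that also takes part in Mmp2 activation, had levels of 2.58, 2.84, 2.93 and 2.73 in iKO and 3.75, 3.06 and 3.34 in flox, with no overlap (-0.61 ± 0.18, adjusted p = 0.218). Mmp14, the membrane protease that activates Mmp2, lay the other way. It had levels of 2.18, 2.30, 2.32 and 2.19 in iKO and 2.42, 1.73 and 2.22 in flox, and the difference was 0.13 ± 0.13 (adjusted p = 0.714). Mmp14 and Tgfb1, the growth factor that drives collagen synthesis (0.04 ± 0.35), were the 2 members not lower in iKO. Of the mesenchymal genes, the platelet-derived growth factor receptors Pdgfrb (-0.33 ± 0.14) and Pdgfra (-0.36 ± 0.22) were lower, while the intermediate filament Vim (-0.03 ± 0.28) and connective tissue growth factor Ctgf (-0.00 ± 0.36) lay at 0.

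**Figure D1:**
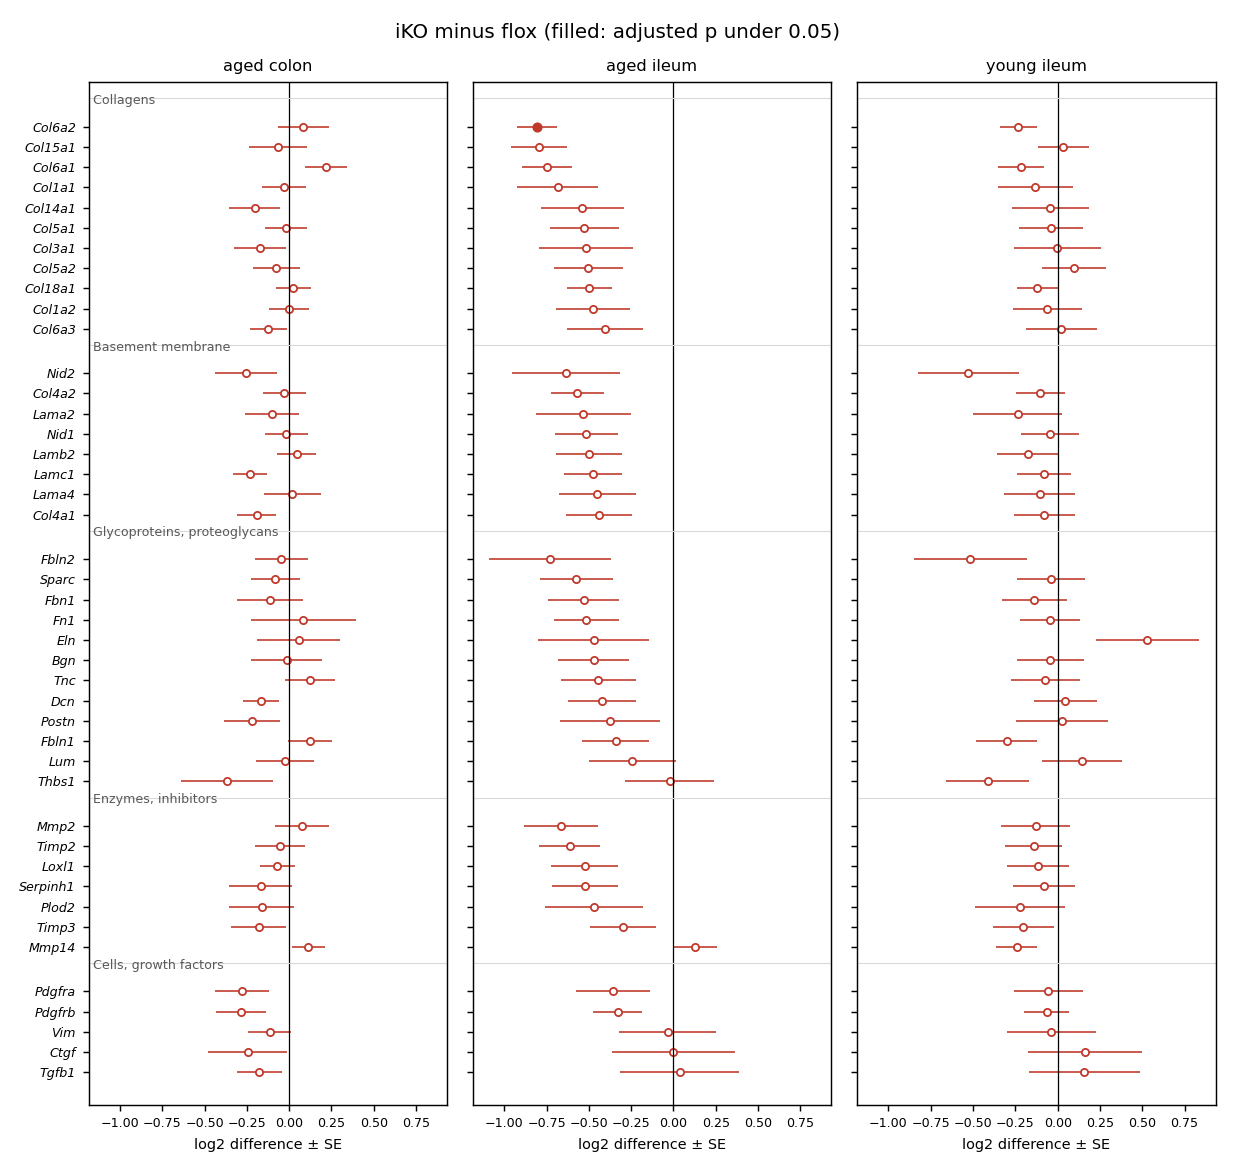
Difference between iKO and flox mice (x axis, log2 units, bars are standard errors) for each tested member except Lox, in aged colon, aged ileum and young ileum, grouped by role. In aged ileum 41 of 43 members lie left of 0 and Col6a2, the filled point, passed the test; in aged colon and young ileum none is filled, and most points lie left of 0 but nearer to it.

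Many members were high or low on the same arrays. Of the 43 members tested in ileum, 34 had their highest aged ileum iKO level on array 3 and 26 their lowest on array 1. Among the aged ileum flox arrays, 36 had their highest level on array 1 and 31 their lowest on array 3. The mean over the 42 members detected throughout was -0.12, 0.06, 0.36 and 0.07 on aged ileum iKO arrays 1 to 4, against 0.77, 0.37 and 0.48 on flox arrays 1, 3 and 4. The highest iKO array thus lay just under the lowest flox array. Leaving out flox array 1 moved the median difference to -0.36 with 39 members lower, and leaving out iKO array 3 moved it to -0.58 with 41 lower. Without aged iKO array 3 or aged flox array 3, 2 members were called rather than 1. The only slide that held both aged ileum genotypes carried iKO array 2 and flox array 3, and there the median was -0.23, with 37 of 43 members lower and Col6a2 lower by a difference of -0.81. With slide as a fixed factor Col6a2 did not pass (-0.75, adjusted p = 0.276), nor with the replicate number as a term. It also missed with only the aged ileum arrays in the fit (-0.81, adjusted p = 0.149). Position on the slide was added as a term only to that smaller fit (-0.80, adjusted p = 0.327), where the call was already lost. With array weights 12 members were called, but the calls over all genes rose steeply too.

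Markers of other cells moved with the members in part. In aged ileum, smooth muscle markers had a mean level of 2.70 to 3.23 on iKO arrays and 3.14 to 3.30 on flox arrays, with all 11 below 0 in the difference (median -0.28, none called). Endothelial markers had a mean of -0.91 to -0.67 in iKO and -0.71 to -0.30 in flox, with all 9 lower (median -0.22, none called). Pericyte markers had a mean of 0.08 to 0.62 in iKO and 0.36 to 0.59 in flox (4 of 5 lower, median -0.15). Enteric neuron and glia markers had a mean of -1.24 to -0.59 in iKO and -1.01 to -0.57 in flox (4 of 6 tested lower, median -0.20). Both mesothelial markers tested were lower (median -0.30), as were all 4 fat markers tested (median -1.09), none of them called. The fat marker Fabp4, the only marker of fat and pancreas detected on all arrays, had levels of 3.80 to 4.26 in iKO and 4.16 to 6.34 in flox. The fibroblast markers that are not members had a mean of 0.22 to 0.79 in iKO and 0.30 to 0.92 in flox, with 5 of 7 tested lower (median -0.39, none called). Macrophage markers had a mean of 0.37 to 0.78 in iKO and 0.48 to 0.78 in flox (4 of 7 lower), and epithelial markers 6.59 to 6.72 in iKO and 6.57 to 6.66 in flox (1 of 7 lower). The part of these cell types in the lower matrix levels was not tested.

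**Figure D2:**
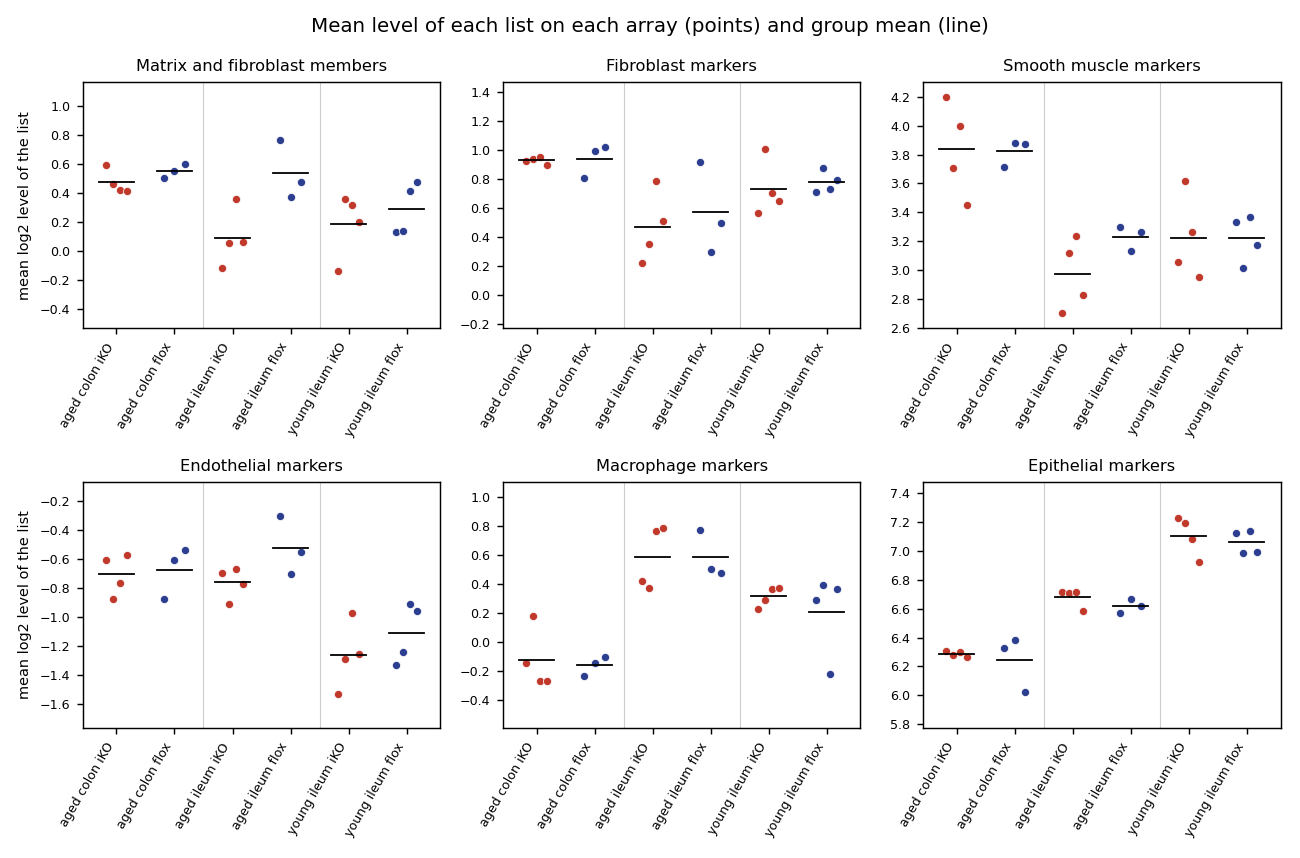
Mean log2 level of the members detected on all arrays and of 5 marker lists (y axis, log2 signal minus the array's 75th percentile) on each array, by group, with a line at the group mean. The y axes span the same range; in aged ileum the iKO points lie lower than the flox points for the members, while the epithelial markers of the 2 genotypes overlap.

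In young ileum no member passed the test between iKO and flox mice (percentage of all genes called, 0.0449%), and none had an unadjusted p under 0.05, against 643 of 15588 genes. The median was -0.08, with 34 of 43 members lower (51.8% of all genes were). The smallest p belonged to Col6a2, which had levels of -1.51, -1.61, -1.54 and -1.51 in young iKO and -1.38, -1.32, -1.26 and -1.28 in young flox: the groups did not overlap, and the difference was -0.23 ± 0.11 (adjusted p = 0.999). Mmp14 was the other member with every iKO array below every flox array (1.21% of all genes were), with levels of 1.30, 1.16, 1.31 and 1.32 in iKO and 1.49, 1.53, 1.44 and 1.61 in flox (-0.24 ± 0.12, adjusted p = 0.999). Nid2 (-0.53 ± 0.30), Eln (0.53 ± 0.31) and Thbs1 (-0.41 ± 0.24) followed, all with an adjusted p of 0.999. Within the 4 young slides, each with 1 array of either genotype, the member median was 0.24, -0.26, -0.15 and -0.16. The median over all genes on the same slides was 0.02, 0.02, -0.12 and 0.03. Young iKO array 1 held the lowest level of its group for 31 of 43 members, and without it the median was 0.04.

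In aged colon no member passed either (percentage of all genes called, 0.111%), and none had an unadjusted p under 0.05, against 1424 of 19757 genes. The median was -0.07, with 33 of 44 members lower (52.7% of all genes were). Lamc1, the laminin gamma chain common to most laminins, had the smallest p, with levels of 1.18, 1.06, 1.01 and 0.96 in colon iKO and 1.38, 1.20 and 1.28 in colon flox, which did not overlap (-0.23 ± 0.10, adjusted p = 0.702). Col6a1 was higher in colon iKO, with levels of 0.48, 0.07, 0.14 and 0.25 against -0.07, 0.06 and 0.06 in colon flox (0.22 ± 0.12, adjusted p = 0.825). Lamc1 and Dcn were the 2 members with every iKO array lower (3.84% of all genes) and Col6a1 the only one with every iKO array higher (4.41% of all genes). Pdgfrb (-0.29 ± 0.15), Pdgfra (-0.28 ± 0.16) and Col4a1 (-0.19 ± 0.11) did not pass.

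Whether the genotype difference depended on age or tissue was tested as an interaction, and no member was called in either. In ileum the genotype difference was lower in aged than in young mice for 40 of 43 members (46.4% of all genes), with a median of -0.40 and 0% of all genes called, although 395 genes had an unadjusted p under 0.05. Col15a1 (-0.83 ± 0.22), Col6a2 (-0.58 ± 0.16), Col6a1 (-0.53 ± 0.20), Eln (unadjusted p = 0.044) and Col4a2 (-0.46 ± 0.22) had the smallest p, each with an adjusted p of 1. At 24 months the genotype difference was higher in colon than in ileum for 39 of 44 members (45.7% of all genes), with a median of 0.44 and 0.0353% of all genes called. Here Col6a1 (0.97 ± 0.22, adjusted p = 0.446) and Col6a2 (0.89 ± 0.22, adjusted p = 0.477) came first, before Col1a1 (0.65 ± 0.20), Mmp2 (0.74 ± 0.24) and Col15a1 (0.73 ± 0.24). Both interactions used the same aged ileum arrays as the comparison within aged ileum.

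**Figure D3:**
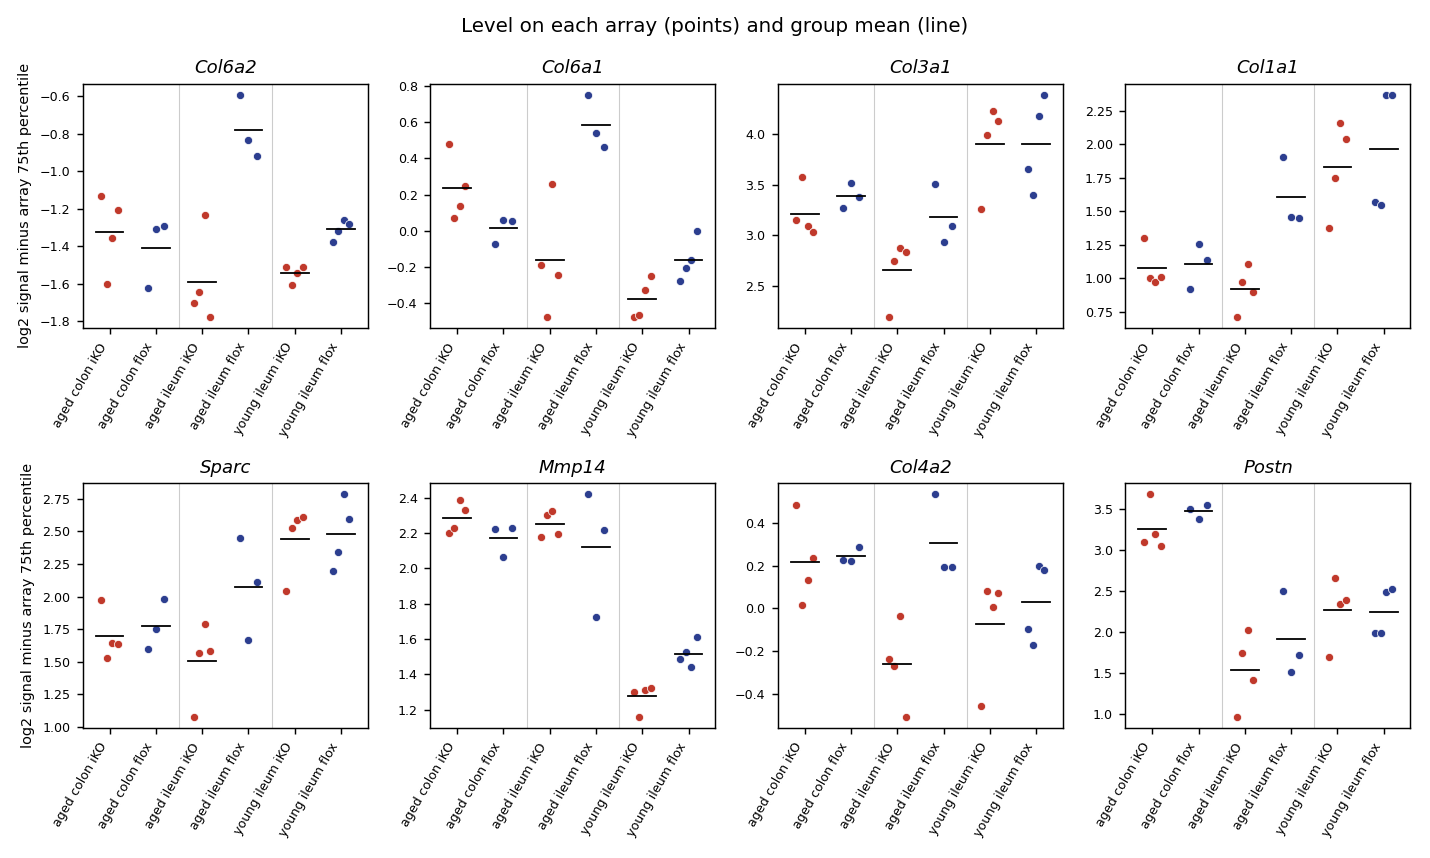
Level of 8 members (y axis, log2 signal minus the array's 75th percentile) on each array, in 6 groups, with a line at the group mean. The 3 aged ileum flox arrays lie above all aged ileum iKO arrays for Col6a2 and Col6a1, Col3a1, Col1a1 and Sparc are lower in aged than in young iKO ileum, and Mmp14 is higher in both aged ileum groups than in the young ones.

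Between aged and young ileum, Col18a1 and Mmp14 rose in both genotypes, and Col3a1, Col1a1 and Sparc fell in iKO mice. In iKO ileum, 2 members were higher in aged than in young mice (5.15% of all genes) and 3 were lower (5.57% of all genes), with a median of -0.05 and 16 of 43 above 0 (47.9% of all genes), so that the members' shares called were near those over all genes. In flox ileum, 6 members were higher (3.19% of all genes) and none lower (5.36% of all genes), with a median of 0.30 and 35 of 43 above 0 (46.9% of all genes). These counts share their aged arrays with the genotype comparison. The balance of higher and lower calls over all genes depended on the scaling, 48.1% of calls being higher in iKO (59.6% with quantile normalization and 34.0% with the array median) and 37.3% in flox (51.4% and 14.8%), and with the array median the median of all genes in flox moved to -0.13. The 5 members called in iKO were called under both scalings. The 6 called in flox were called with the array median, while with quantile normalization 4 were, without Bgn (adjusted p = 0.0658) and Col15a1 (adjusted p = 0.056).

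Mmp14 had levels of 2.18, 2.30, 2.32 and 2.19 on aged iKO arrays and 1.30, 1.16, 1.31 and 1.32 on young iKO arrays. The groups lay far apart, and the difference of 0.98 ± 0.12 (adjusted p = 0.000326) was the largest rise of a member in iKO. In flox, Mmp14 had levels of 2.42, 1.73 and 2.22 in aged and 1.49, 1.53, 1.44 and 1.61 in young mice, again without overlap (0.60 ± 0.13, adjusted p = 0.0158). A second Mmp14 probe gave 1.01 in iKO and 0.72 in flox. Col18a1 rose as well, with levels of 1.48, 1.57, 1.69 and 1.51 in aged iKO and 1.04, 1.22, 1.08 and 0.94 in young iKO (0.49 ± 0.12, adjusted p = 0.025), and of 2.33, 1.67 and 2.18 in aged flox and 1.07, 1.24, 1.23 and 1.22 in young flox (0.87 ± 0.13, adjusted p = 0.0025). In both genotypes every aged array lay above every young one.

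Col3a1 fell 2.36-fold with age in iKO ileum. It had levels of 2.19, 2.74, 2.87 and 2.83 on aged iKO arrays and 3.25, 3.99, 4.23 and 4.13 on young iKO arrays, with no overlap (-1.24 ± 0.26, adjusted p = 0.0114). In flox it had levels of 3.51, 2.93 and 3.09 in aged and 3.65, 3.40, 4.17 and 4.39 in young mice, which overlapped, and did not pass (-0.73 ± 0.28, adjusted p = 0.117). Sparc had levels of 1.08, 1.57, 1.79 and 1.58 in aged iKO and 2.04, 2.52, 2.59 and 2.61 in young iKO (-0.94 ± 0.20, adjusted p = 0.0135), and differed by -0.40 ± 0.22 in flox (adjusted p = 0.261). Col1a1 had levels of 0.71, 0.97, 1.11 and 0.90 in aged iKO and 1.37, 1.75, 2.16 and 2.04 in young iKO (-0.91 ± 0.22, adjusted p = 0.0232), and differed by -0.36 ± 0.24 in flox (adjusted p = 0.368). Both genes had no overlap in iKO. That these falls passed in iKO and not in flox does not show that the genotypes differ: the interaction was not called for Col3a1 (-0.52 ± 0.38), Sparc (-0.54 ± 0.30) or Col1a1 (-0.55 ± 0.33).

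Col6a1, Col6a2, Col15a1 and Bgn passed the test with age in flox and not in iKO. Col6a1 had levels of 0.75, 0.54 and 0.46 in aged flox and -0.28, -0.21, -0.16 and 0.00 in young flox (0.75 ± 0.15, adjusted p = 0.0105). Col6a2 differed by 0.53 ± 0.12 (adjusted p = 0.0193) and Col15a1 by 0.65 ± 0.16 (adjusted p = 0.0296). Biglycan, Bgn, a small proteoglycan that binds collagen, had levels of -1.48, -1.54 and -1.88 in aged flox and -2.58, -2.28, -2.80 and -1.94 in young flox (0.77 ± 0.21, adjusted p = 0.0411). In iKO the same genes differed by 0.22 ± 0.13, -0.05 ± 0.11, -0.18 ± 0.15 and 0.34 ± 0.20, none of them called, and their genotype-by-age interactions were not called either. For Col15a1 the mean over its probes reversed the flox difference (-0.28), the second probe being well above background on 2 of 22 arrays.

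Single arrays mattered to these calls. In flox the calls of Col18a1 and Col6a1 held with each array left out. Without aged flox array 1, 2 members were called, Col6a2 (adjusted p = 0.083), Mmp14 (adjusted p = 0.0639), Col15a1 (adjusted p = 0.117) and Bgn (adjusted p = 0.128) being lost, and without aged flox array 4, 3 were called. In iKO the calls of Mmp14, Col3a1 and Sparc held with each array left out, but only 2 of the 5 iKO calls held in every setting tried. Without young iKO array 1, 8 members were called, and without young iKO array 3 or aged iKO array 1, 3 were called. Col1a1 was lost without young iKO array 3 (adjusted p = 0.0784), aged iKO array 1 (adjusted p = 0.0689) or aged iKO array 4 (adjusted p = 0.0532). Col18a1 was lost in iKO without young iKO array 3 (adjusted p = 0.063) or 4 (adjusted p = 0.0518), or without aged iKO array 1 (adjusted p = 0.0512) or 3 (adjusted p = 0.0727).

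By role, all 5 mesenchymal genes lay above 0 with age in both genotypes and none was called, among them Pdgfrb (0.19 ± 0.13 in iKO and 0.46 ± 0.14 in flox). All 8 basement membrane genes lay above 0 in flox (median 0.33) and 3 of 8 in iKO (median -0.02), with none called. The endothelial markers, which are not members, were higher in aged mice for 9 of 9 in both genotypes, 3 of them called in iKO and 4 in flox, with the clotting factor Vwf at 1.12 ± 0.11 in iKO and 1.20 ± 0.11 in flox. Macrophage markers had 3 called higher in iKO and 2 in flox, and epithelial markers 3 called lower in iKO and 2 in flox. Smooth muscle markers had none called: all 11 were below 0 in iKO (median -0.25), with mean levels of 2.70 to 3.23 in aged and 2.95 to 3.62 in young iKO, and 5 of 11 were below 0 in flox (median 0.04). Of the 7 fibroblast markers tested, 3 were below 0 in iKO and 2 in flox, and Dpt, dermatopontin, fell in both (-2.12, adjusted p = 0.000137 in iKO and -1.78, adjusted p = 0.00147 in flox). Both mesothelial markers tested were below 0 in both genotypes without passing (median -0.82 in iKO and -0.84 in flox). The part of these cells in the age differences of the members was not tested.

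**Figure D4:**
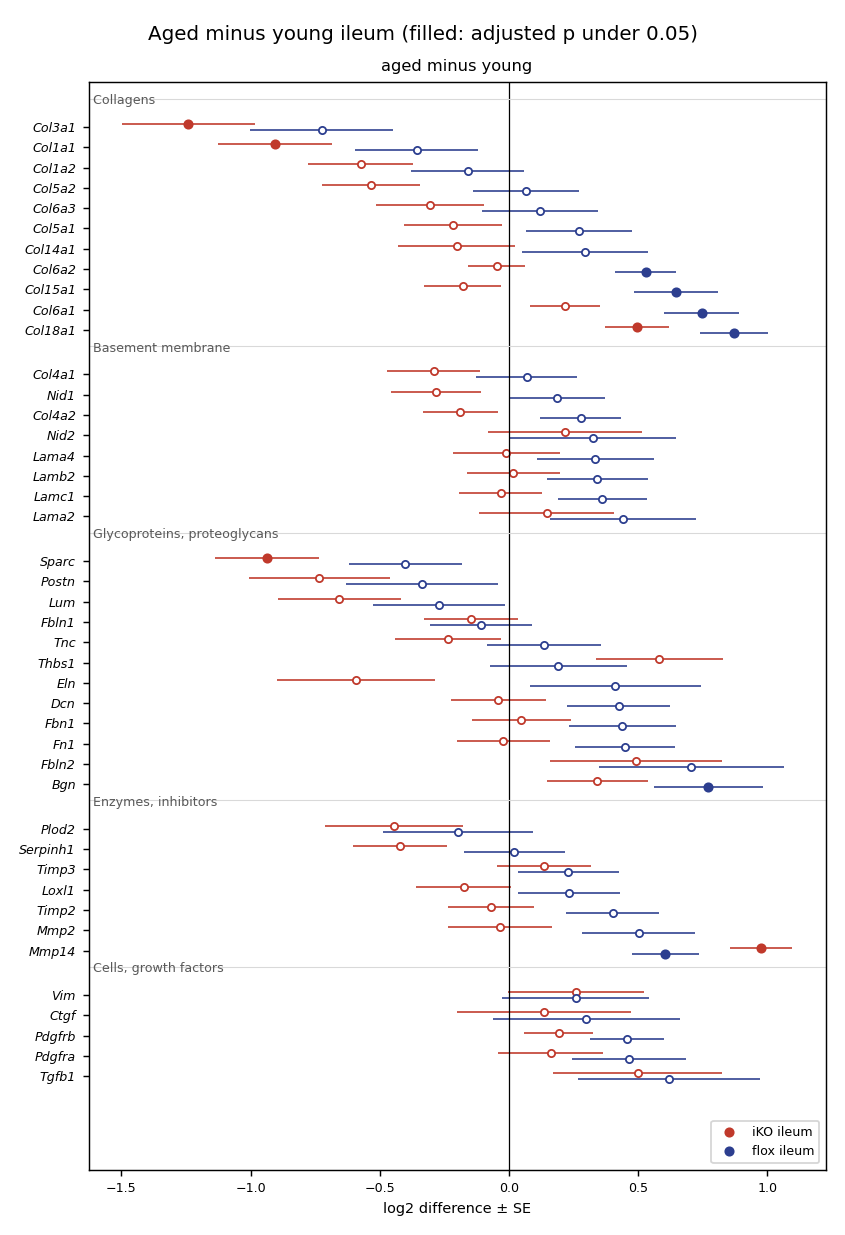
Difference between aged and young ileum (x axis, log2 units, bars are standard errors) for 43 members in iKO and in flox mice, grouped by role, with filled points for an adjusted p under 0.05. Mmp14 and Col18a1 are filled to the right in both genotypes, Col3a1, Col1a1 and Sparc are filled to the left in iKO, and most flox points lie to the right of the iKO point of the same gene.

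In aged mice of both genotypes Postn, Thbs1, Ctgf, Timp2, Timp3 and Plod2 were called higher in colon than in ileum, and Nid2 and Pdgfrb lower. In aged iKO mice, 21 members were higher in colon (24.3% of all genes) and 3 lower (19.3% of all genes), with a median of 0.38 over 44 members and 0.07 over all genes. The 21 include Lox, which entered the fit only through its colon arrays. In aged flox mice, 6 were higher (19.2% of all genes) and 7 lower (13.7% of all genes), with a median of -0.02 over members and 0.08 over all genes. In flox the shares called were thus near those over all genes or under them. The counts of both genotypes share their aged ileum arrays with the genotype comparison in that tissue. With the array median as the scale, 14 members were higher in iKO and 5 in flox. Since colon and ileum arrays were on different slides, these differences and those of the array run cannot be told apart. Aged colon and ileum arrays of a genotype carried the same replicate numbers, and no label says whether the same mice gave both. The main fits did not pair them.

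Postn, periostin, a matricellular protein of mesenchyme under load, had levels of 3.09, 3.67, 3.19 and 3.04 in colon iKO and 0.97, 1.74, 2.02 and 1.41 in ileum iKO (1.71 ± 0.25, adjusted p = 0.000211). In flox it had levels of 3.49, 3.37 and 3.54 in colon and 2.50, 1.51 and 1.72 in ileum (1.56 ± 0.29, adjusted p = 0.00177). The tissues did not overlap in either genotype. Thbs1 rose by 0.94 ± 0.28 in iKO (adjusted p = 0.0162) and by 1.28 ± 0.32 in flox (adjusted p = 0.00934). Fn1 had levels of 0.96, 0.25, 0.29 and -0.39 in colon iKO and -1.07, -0.98, -0.83 and -1.27 in ileum iKO, without overlap (1.31 ± 0.24, adjusted p = 0.00101), and differed by 0.72 ± 0.28 in flox (adjusted p = 0.0671). Fbln2 (1.20 ± 0.25) and the tenascin Tnc (0.87 ± 0.17) were called in iKO and not in flox, with no interaction called.

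Of the matrix enzymes and inhibitors, Plod2, Timp2 and Timp3 were called higher in colon in both genotypes. Plod2, the lysyl hydroxylase that prepares collagen telopeptides for stable cross-links, had levels of -1.59, -1.92, -2.27 and -2.29 in colon iKO and -3.28, -3.12, -3.09 and -3.25 in ileum iKO (1.17 ± 0.15, adjusted p = 6.59e-05). In flox it had levels of -1.77, -1.98 and -1.81 in colon and -2.64, -2.89 and -2.62 in ileum (0.86 ± 0.17, adjusted p = 0.00243). No colon array overlapped an ileum array of its genotype. Timp2 rose by 1.08 ± 0.16 in iKO (adjusted p = 0.000189) and 0.52 ± 0.18 in flox (adjusted p = 0.0426), and Timp3 by 0.92 ± 0.16 in iKO (adjusted p = 0.000696) and 0.81 ± 0.19 in flox (adjusted p = 0.00609). Loxl1, which cross-links elastin, rose in iKO (0.75 ± 0.17, adjusted p = 0.00364) and did not pass in flox (0.30 ± 0.19, adjusted p = 0.262). Serpinh1, the collagen chaperone, passed in neither (0.39 ± 0.19 in iKO and 0.03 ± 0.22 in flox). Lox was well above background on all 7 colon arrays, on none of the 4 aged ileum iKO arrays and on 1 of the 3 aged ileum flox arrays. Only the colon arrays brought it past the filter, which favours a higher level in colon. Its call in iKO (adjusted p = 0.0125) is therefore not read as a result, and its signal in ileum gives no fold.

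The collagens called differed between the genotypes in this comparison, although no interaction was called. Both sets of calls rest on the same aged ileum arrays in which the collagens were lower in iKO, so they are not a separate result. No member was called between genotypes in aged colon. In iKO, 5 collagens were higher in colon and none lower: Col15a1 (0.70 ± 0.16), Col3a1 (0.55 ± 0.18), Col5a2 (0.51 ± 0.17), Col5a1 (0.49 ± 0.14) and Col6a1 (0.40 ± 0.15). In flox, none was higher and 4 were lower: Col6a2 (-0.63 ± 0.17), Col18a1 (-0.62 ± 0.15), Col6a1 (-0.57 ± 0.17) and Col1a1 (-0.50 ± 0.15). Col6a1 was thus called in opposite directions, with 0.48, 0.07, 0.14 and 0.25 in colon iKO and -0.19, -0.47, 0.26 and -0.25 in ileum iKO, against -0.07, 0.06 and 0.06 in colon flox and 0.75, 0.54 and 0.46 in ileum flox. Its interaction was not called (0.97 ± 0.22, adjusted p = 0.446), and the iKO call was lost when any 1 of 11 of the 14 aged arrays was left out. The mean over probes reversed the iKO difference of Col15a1 (-0.07) and Col3a1 (-0.17), whose other probes were well above background on 9 arrays at most. Of the basement membrane genes, Lamb2 (0.89 ± 0.13), Lama2 (0.57 ± 0.18), Col4a2 (0.48 ± 0.13), Lamc1 (0.38 ± 0.11) and Col4a1 (0.33 ± 0.11) rose in iKO. None was called higher in flox, where Lamb2 differed by 0.35 ± 0.16 with every colon array above every ileum array (adjusted p = 0.109). Outside the counts, the brighter perlecan probe was called higher in colon in iKO (0.63 ± 0.19, adjusted p = 0.0184). It did not pass in flox (0.41 ± 0.22, adjusted p = 0.176), and Lamb1-1 passed in neither.

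The genes lower in colon in both genotypes were a nidogen and a receptor. Nid2 had levels of -2.81, -2.61, -2.93 and -2.88 in colon iKO and -2.02, -2.00, -2.04 and -2.17 in ileum iKO (-0.75 ± 0.14, adjusted p = 0.0011). In flox it had levels of -2.97, -2.41 and -2.28 in colon and -1.51, -1.26 and -1.51 in ileum (-1.13 ± 0.16, adjusted p = 0.000331). The tissues were apart in both genotypes. Pdgfrb fell by 0.48 in iKO (SE 0.13, adjusted p = 0.00837) and by 0.53 in flox (SE 0.14, adjusted p = 0.0155). Ctgf rose by 0.88 ± 0.32 in iKO (adjusted p = 0.0446) and 1.12 ± 0.37 in flox (adjusted p = 0.0373), Fbln1 fell by 0.60 in flox (SE 0.14, adjusted p = 0.00677), and Tgfb1 fell by 0.78 in iKO (SE 0.20, adjusted p = 0.00812).

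In flox 7 of the 13 calls, and in iKO 17 of the 24, held with each array left out. In every setting tried, 5 of the 13 and 13 of the 24 held. The 24 include Lox, whose call is not read as a result. Without aged colon flox array 1, 8 members were called in flox, and without aged ileum flox array 1 the member median moved to 0.14. Smooth muscle markers were higher in colon for 11 of 11 in both genotypes, with mean levels of 3.45 to 4.20 in colon iKO and 2.70 to 3.23 in ileum iKO, and of 3.72 to 3.88 in colon flox and 3.14 to 3.30 in ileum flox. Of these, 9 were called in iKO and 5 in flox. The fibroblast markers had 4 called higher in iKO and 1 in flox. The part of muscle or fibroblast content in the members' differences was not tested.

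**Figure D5:**
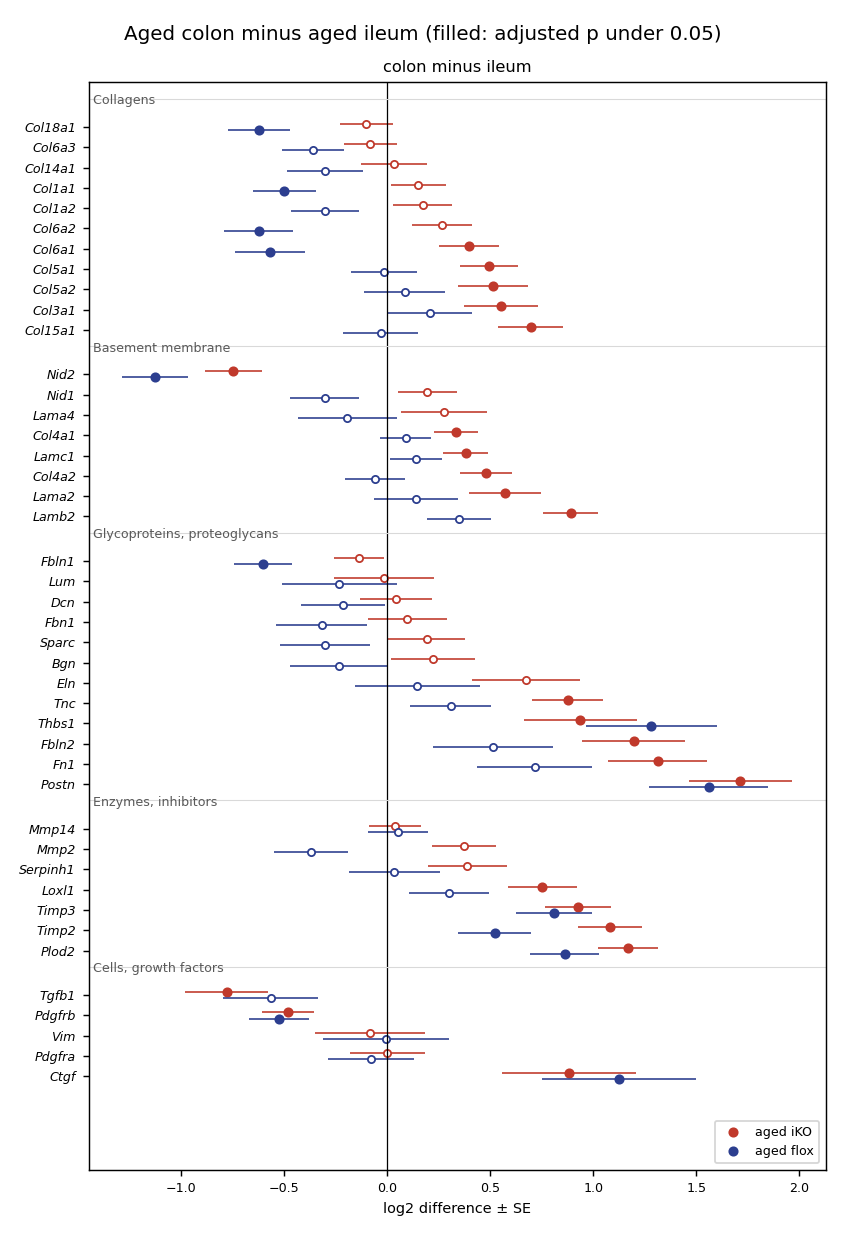
Difference between aged colon and aged ileum (x axis, log2 units, bars are standard errors) for 43 members, Lox left out, in iKO and in flox mice, grouped by role, with filled points for an adjusted p under 0.05. Postn, Thbs1, Ctgf, Timp2, Timp3 and Plod2 are filled to the right in both genotypes, Nid2 and Pdgfrb to the left, and the collagens lie further right in iKO than in flox.

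Other matrix genes, outside the 47, were read from lists of the same pathways. In aged ileum none of them was called between iKO and flox, and the medians were -0.40 for other collagens (7 of 8 tested lower), -0.43 for other matrix proteins (14 of 15), -0.29 for collagen synthesis and cross-linking (11 of 13), -0.23 for the TGF-beta pathway (12 of 14), -0.15 for matrix receptors (17 of 19), -0.40 for epithelial laminin chains (3 of 4) and -0.24 for other matrix proteases and inhibitors (7 of 10). The nearest to the threshold were Ltbp4, which tethers latent TGF-beta (-0.61, adjusted p = 0.132), the metalloproteinase Mmp7, which was higher in iKO (0.81, adjusted p = 0.151), Emilin1 (-0.46, adjusted p = 0.172) and the collagen-binding integrin Itga1 (-0.55, adjusted p = 0.177). Timp1, an inhibitor, also lay above 0 (0.62, adjusted p = 0.304), and the aggrecanase Adamts5 below it (-0.96, adjusted p = 0.206). P4hb, a subunit of prolyl hydroxylase and a general folding enzyme, lay above 0 as well (0.38, adjusted p = 0.23). With age, Loxl2, a cross-linking oxidase, fell in both genotypes, by 1.85 in iKO (adjusted p = 7.54e-05) and 1.66 in flox (adjusted p = 0.000434). Fbln5, a fibulin of elastic fibres, rose by 0.58 in iKO (adjusted p = 0.0231) and 1.02 in flox (adjusted p = 0.00235), and Ltbp4 by 0.48 in iKO (adjusted p = 0.0333) and 0.89 in flox (adjusted p = 0.00296).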

How the data were processed

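RNA of 22 mouse intestine samples was measured on 1-colour Agilent arrays of 45018 spots. Per the file headers, the deposited files hold spot intensity from Agilent Feature Extraction 9.5, already background-corrected. The deposited table of the whole series held the same intensity values, with a largest difference of 0, and served only as a check. Here log2 intensity minus the array's 75th percentile was computed, control spots and outlier spots were left out, and the brightest probe stood for a gene. Genes were tested with limma 3.58.1 (lmFit and eBayes, R 4.3.3) in 3 fits: the 4 ileum groups, the 2 colon groups, and the 4 aged groups. Genes entered a fit if at least 1 of its groups had the probe flagged well above background throughout, which gave 15588, 19757 and 19808 genes. P-values were adjusted by Benjamini-Hochberg over all genes of a fit, and the fit was tested on simulated data. The number of arrays limits the precision.

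The members and lists were chosen with earlier results of these data known. Every member could be named; called members were named by size, and, where under 5 were called, the 5 with the smallest p. From each other list, up to 4 genes with the smallest p in a comparison could be named. Alternatives covered scaling, background correction, filters, probe averaging, slide, position, the replicate block and each array left out. Tables used pandas 2.3.3 and figures matplotlib 3.10.9.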

Additional observations from a re-analysis of the deposited data

Results flagged for a closer look

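Among 168 groups of 4 arrays checked over 42 members, 9 had an array set apart from the others of its group, and chance flags about 1 in 20 such groups. In aged colon iKO, array 2 was low for Col15a1 (-2.74), and array 1 was high for Col1a1 (1.30) and Col1a2 (3.25). In young ileum iKO, array 1 was low for Col4a2 (-0.46), Lum (2.38) and Sparc (2.04), and array 2 was low for Mmp14 (1.16). In young ileum flox, array 1 was low for Col18a1 (1.07) and array 4 was high for Mmp2 (-0.23).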

How the results depend on the processing

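In aged ileum 1 member was called between iKO and flox. This became 0 with the mean over probes, only the groups compared, slide as a fixed factor or the replicate block. It was also 0 with position as a term, which was fitted on the aged ileum arrays alone. It became 12 with array weights, when 1196 of all genes were called, and ranged from 1 to 2 with each array left out. With the replicate block Col6a2 stayed lower (-0.79, adjusted p = 0.0557). The labels tie no number to an animal or day, and deviations of same-numbered ileum arrays had a median correlation of 0.08 (9 of 21 pairs over 0.1), against -0.03 for other numbers (11 of 63). An array correlated best with its own number in 18 of 42 array and group combinations. Aged ileum and aged colon arrays carried the same numbers within each genotype, and no label says whether the same mice gave both. Deviations of these 7 same-numbered tissue pairs had correlations of -0.03 to 0.12 (median 0.02). For pairs of other numbers the median was -0.005. Whether the numbers mark pairs was not tested further, and the main fits left them out. Between aged and young flox ileum, the 6 calls became 2 with no filter, 3 with only the groups compared and 3 with slide as a fixed factor, and ranged from 2 to 7 with each array left out. In iKO the 5 calls became 3 with no filter or with the mean over probes, and ranged from 3 to 8. Between colon and ileum in flox, the 13 calls ranged from 8 to 13 with each array left out, and the median became -0.19 with the mean over probes and ranged from -0.14 to 0.14. The mean over probes reversed Col15a1 with age in flox (-0.28), and Col15a1 (-0.066) and Col3a1 (-0.17) between colon and ileum in iKO; the cause was not tested. Over all genes, calls between aged ileum genotypes numbered 26. They ranged from 5 with position, on the aged ileum arrays alone, to 1196 with array weights. With age in flox, 1333 became 395 with no filter and 3551 with array weights. Slide as a fixed factor could not be fitted for the colon and ileum contrasts.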
